A study of Mus musculus with 8 samples.

Results

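The hearts of TAZG197V mice expressed 24 genes that were close to silent in the hearts of wild-type (WT) mice. The genes were chosen by their level in the individual libraries, which is given here as CPM, the count of a gene per 1000000 counts of its library. A gene belonged to the group when its CPM was below 1 in all 4 WT libraries and at least 2 in all 4 TAZG197V libraries. Of 55471 genes counted, 41359 were below the WT limit and 32 met both limits. Of the latter, 8 were left out by name, namely Ostn, Vmn2r3, Adm2, Soat2, Akr1b7, Fgf21 and members of the Slc7a family of amino acid transporters, which left the 24 genes described here. Because the group was selected on the difference between the genotypes, that difference is a description of the genes and carries no test.

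Tafazzin is the X-linked mitochondrial transacylase that remodels cardiolipin, the signature phospholipid of the inner mitochondrial membrane, and its loss of function causes Barth syndrome, a disease of heart and skeletal muscle. Cells with impaired mitochondria commonly engage the integrated stress response, in which phosphorylation of the initiation factor eIF2α favours translation of the transcription factor ATF4, and ATF4 raises genes of amino acid synthesis, uptake and charging. The adult heart makes little of many gene products of epithelia, neurons or embryonic muscle, so that a transcript close to absence in normal heart can be followed from a low background.

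RNA sequencing was performed on small pieces of heart from 4 WT and 4 TAZG197V mice. The TAZG197V mice carry a patient-derived point mutation of Tafazzin in all cells, made by CRISPR/Cas9 in C57BL/6N zygotes and crossed to C57BL6/J, and the study describes hemizygous males and an age of 14 weeks. No treatment was given to either genotype, and the labels do not say whether WT and TAZG197V mice were littermates. Each library is 1 sample in the labels, nothing names the litter or the day, and the p-values below therefore measure the spread between these samples.

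Library totals were between 23055689 and 36301031 counts, so that the WT limit of 1 CPM stands for a small number of reads. The libraries labelled WT 4 and TAZG197V 4 stood apart in transcripts of other cells. The summed level of 12 neuron and glia markers was 221 CPM in WT 4 against 96.3 to 111 in the other WT libraries, and 405 CPM in TAZG197V 4 against 57.9 to 75.1 in the other TAZG197V libraries. The summed level of 7 red cell markers was 53532 CPM in WT 4 and between 229.6 and 1018 CPM in all other libraries. All 8 ventricular cardiomyocyte markers were present, with a summed level of 57768.5 to 65318 CPM in WT and 51719.5 to 55335 CPM in TAZG197V. Of these markers 4 were called lower (edgeR, Benjamini-Hochberg adjusted p under 0.05 with minimums of fold change and count), against 15% of all genes tested. The summed level of 8 atrial cardiomyocyte markers was 1278 CPM in WT 2, 39.9 to 146 CPM in the other WT libraries and 50.4 to 151 CPM in TAZG197V. Fibroblast markers summed to 2290 to 3894 CPM in WT and 1546 to 2228 CPM in TAZG197V, with 4 of 8 called lower against the same 15%. Smooth muscle and pericyte markers overlapped between the genotypes in their sum, at 1281 to 1437 CPM in WT and 1322 to 1423 CPM in TAZG197V, with 5 of 8 called lower and 1 higher. The 8 testis markers summed to 1.23 to 1.93 CPM in WT and 2.37 to 3.43 CPM in TAZG197V without overlap. Of these, 3 could be tested, with a median log2 fold change of 1.20, and edgeR and DESeq2 called 0, with 2 at an unadjusted p under 0.05 in edgeR and Ddx4 (1.73, adjusted p = 0.000553) under the minimum mean count. The sums of 7 other lists (adipocyte, endothelial, macrophage, lymphocyte, liver, kidney and lung) overlapped between the genotypes. Among them, 2 of 3 tested lymphocyte markers, 2 of 8 endothelial and 1 of 3 adipocyte markers were called lower. Lymphocyte markers summed to 63.9 CPM in WT 4 and 2.78 to 5.60 CPM in the other WT libraries. Of 6 red cell markers tested, 4 were called lower. Of 8 neuron and glia markers tested, 3 were called lower and 1 higher. Over all genes, 15% were called lower and 18.5% higher. The part of these differences in the values of the group was not tested. In pieces of tissue, more cells of a type and more RNA per cell cannot be told apart.

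Summed over the 24 genes, the level was 7.61, 10.0, 9.35 and 11.8 CPM in WT 1 to WT 4 and 193, 201, 182 and 148 CPM in TAZG197V 1 to TAZG197V 4. In TAZG197V hearts the whole group made up 0.0183% of all counts. The mean level of a gene in TAZG197V hearts ranged from 2.25 to 36.6 CPM with a median of 4.90, so most of the group stayed weakly expressed: 12 genes were under 5 CPM, 8 were between 5 and 10 CPM and 4 were above 10 CPM. In WT hearts 21 of the 24 genes had at least 1 read in every library, Fam227b and A830018L16Rik had none in 2 libraries each, and Fut1 had none in any. The group held 21 protein-coding genes, the long non-coding RNAs Pvt1 and Gm32856 and the processed transcript 2010204K13Rik, spread over 15 chromosomes.

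**Figure D1:**
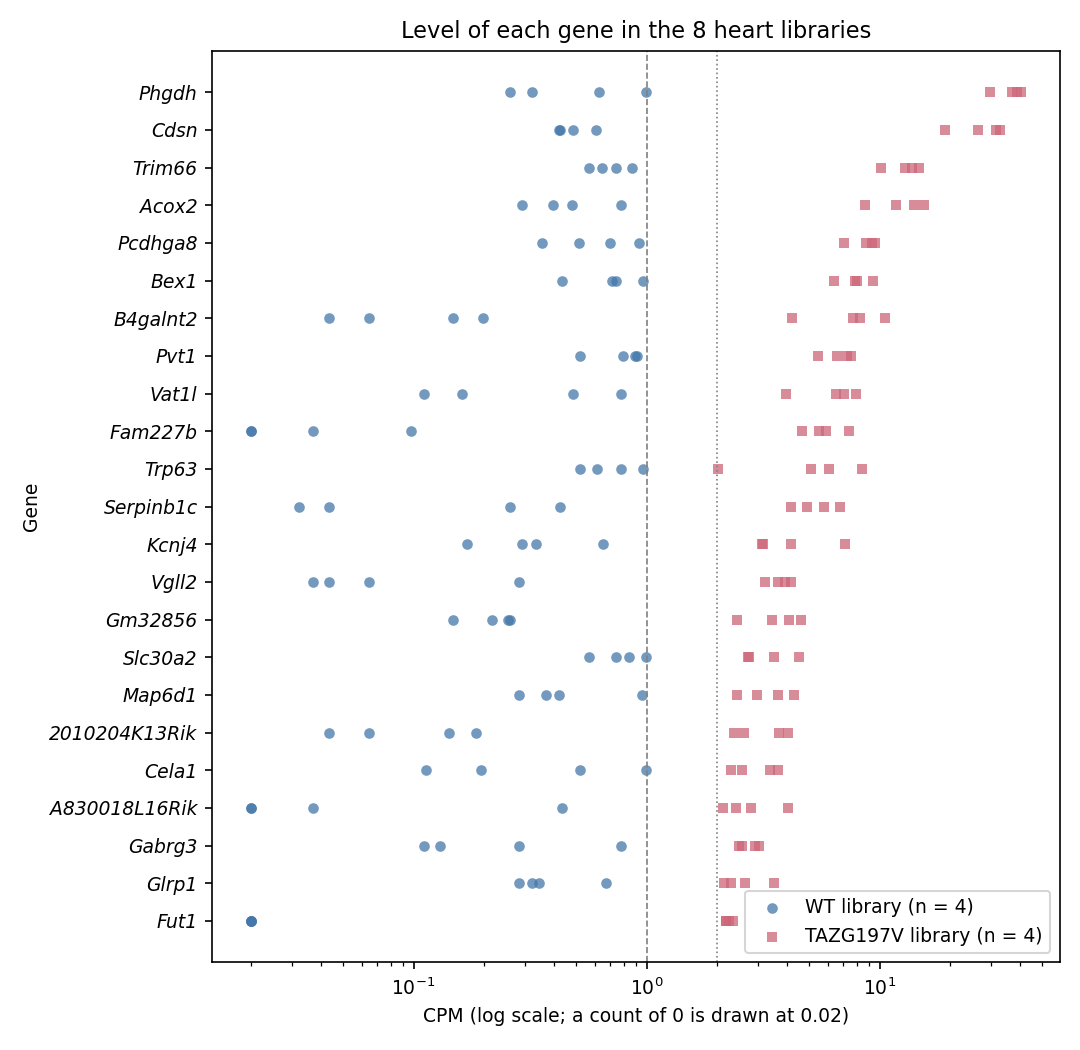
CPM of 23 of the 24 genes (log axis, genes ordered by their mean in TAZG197V) in the 4 WT libraries (circles) and the 4 TAZG197V libraries (squares); a count of 0 is drawn at 0.02, the dashed line is the WT limit of 1 CPM and the dotted line the TAZG197V limit of 2 CPM. The rule keeps the genotypes apart for each gene drawn, Phgdh and Cdsn reach the highest levels at 36.6 and 27.5 CPM, and Fut1 lies at 0 in all WT libraries.

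Among the metabolic enzymes, Phgdh, which opens the synthesis of serine from a glycolytic intermediate, had the highest level of the group. Phgdh was at 0.324, 0.625, 0.260 and 0.998 CPM in WT 1 to 4 and at 37.1, 39.1, 40.6 and 29.8 CPM in TAZG197V 1 to 4. The ratio of the summed levels was 69.2, with a 95% interval of 53.9 to 90.5 that covers counting error only. Of the 50-base windows along its exons, 47.8% also occur in other annotated genes such as Gm13337 and Gm5847, so the count of Phgdh depends on how reads with several matches were treated, which is not stated. Acox2, the peroxisomal oxidase of branched-chain acyl-CoAs and bile acid intermediates, was at 0.291, 0.397, 0.779 and 0.477 CPM in WT and at 14.0, 15.5, 11.7 and 8.66 CPM in TAZG197V hearts. The elastase gene Cela1 was at 0.194, 0.114, 0.519 and 0.998 CPM in WT and 2.57, 3.39, 2.30 and 3.65 CPM in TAZG197V, and its highest WT library was WT 4.

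Fut1 and B4galnt2 encode glycosyltransferases that finish the sugar chains of glycoproteins and glycolipids. Fut1 adds the fucose of the H antigen and B4galnt2 adds the N-acetylgalactosamine of the Sda antigen. Fut1 had no read in any of the 4 WT libraries and 2.35, 2.204, 2.204 and 2.26 CPM in the TAZG197V libraries. Against a floor of 3 counts over all WT libraries, its level was at least 87.0-fold higher in TAZG197V hearts. B4galnt2 was at 0.0647, 0.199, 0.148 and 0.0434 CPM in WT and at 8.25, 10.6, 7.70 and 4.22 CPM in TAZG197V hearts. The TAZG197V libraries were nearly level for Fut1 and spread widely for B4galnt2, with TAZG197V 4 the lowest. Of the B4galnt2 exon bases, 15.3% overlap Gm11534.

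Of the genes with a role in transcription, Trim66, a chromatin-associated TRIM protein, was at 0.647, 0.568, 0.742 and 0.867 CPM in WT and at 14.8, 12.8, 13.7 and 10.1 CPM in TAZG197V. Trp63, the relative of p53 that specifies stratified epithelia, was at 0.615, 0.965, 0.519 and 0.781 CPM in WT and at 5.10, 6.06, 8.42 and 2.03 CPM in TAZG197V. Its lowest TAZG197V library lay just above the limit of 2 CPM and its highest was TAZG197V 3. Vgll2, a cofactor of TEAD transcription factors known from skeletal muscle, was at 0.0647, 0.284, 0.0371 and 0.0434 CPM in WT and at 3.23, 4.19, 3.91 and 3.65 CPM in TAZG197V. The TAZG197V libraries agreed closely for Vgll2, and WT 2 was apart from the other WT libraries. The summed level of 10 skeletal muscle markers was 1266 to 2029 CPM in WT and 2066 to 2766 CPM in TAZG197V, with 1 of the 4 that could be tested called higher against 18.5% of all genes, and its part in the level of Vgll2 was not tested.

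Membrane proteins of excitable and secretory cells formed another part of the group. Kcnj4, an inwardly rectifying potassium channel, was at 0.291, 0.170, 0.334 and 0.651 CPM in WT and at 4.18, 3.14, 3.16 and 7.12 CPM in TAZG197V. Gabrg3, a subunit of the GABA-A receptor, was at 0.129, 0.284, 0.111 and 0.781 CPM in WT and at 2.93, 2.56, 2.50 and 3.05 CPM in TAZG197V. For both genes the highest library of each genotype was the one numbered 4, where the neuron and glia markers were also highest. The same held for Cela1 and A830018L16Rik, thus for 4 of the 24 genes, against 11.6% of all genes tested. In the libraries numbered 1 to 3 the levels of Kcnj4 and Gabrg3 were between 0.111 and 0.334 CPM in WT and between 2.50 and 4.18 CPM in TAZG197V. The part of neuronal RNA in the values of libraries numbered 4 was not tested.

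Slc30a2, a zinc transporter that loads vesicles, was at 0.841, 0.994, 0.742 and 0.564 CPM in WT and 4.51, 3.53, 2.73 and 2.75 CPM in TAZG197V, which gave it the smallest fitted difference of the group. Pcdhga8, a gamma protocadherin of cell adhesion, was at 0.356, 0.511, 0.928 and 0.694 CPM in WT and 8.77, 9.53, 9.31 and 7.04 CPM in TAZG197V. The gamma protocadherins share their last exons, and 55.9% of the exon bases of Pcdhga8 belong to other annotated genes as well. How reads over these bases were counted is not stated. Vat1l, a relative of the vesicle amine transport protein, was at 0.162, 0.483, 0.111 and 0.781 CPM in WT and at 7.04, 7.93, 3.98 and 6.51 CPM in TAZG197V.

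Cdsn encodes corneodesmosin, an adhesion protein of the cornified epidermis, and was the second most abundant gene of the group. Cdsn was at 0.421, 0.426, 0.482 and 0.607 CPM in WT and at 31.6, 32.8, 26.3 and 19.1 CPM in TAZG197V hearts. The summed level of the 8 squamous epithelium genes Krt5, Krt14, Krt1, Krt10, Dsg1a, Dsg3, Lor and Ivl, a list chosen after the values of Cdsn and Trp63 were seen, was 1.63 to 2.58 CPM in WT and 1.91 to 2.24 CPM in TAZG197V, and Ivl was at 0 in every library. Of these 8 genes 1 had counts enough to be tested, and their part in the levels of Cdsn and Trp63 was not tested. A list of 8 pancreatic acinar genes, set beside Cela1 in the same way, summed to 0.0371 to 0.291 CPM in WT and 0.147 to 0.226 CPM in TAZG197V, with Amy2a1 at 0 throughout and no gene that could be tested, and their part in the level of Cela1 was not tested. Serpinb1c, an intracellular serpin of the clade that inhibits leukocyte proteases, was at 0.0324, 0.426, 0.260 and 0.0434 CPM in WT and at 5.76, 6.78, 4.18 and 4.89 CPM in TAZG197V. Neutrophil markers, 8 in all, summed to 53.4 CPM in WT 4, 0.369 to 3.90 CPM in the other WT libraries and 0.376 to 3.06 CPM in TAZG197V, and their part in the level of Serpinb1c was not tested.

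Bex1, a small brain-expressed X-linked protein, was at 0.712, 0.965, 0.742 and 0.434 CPM in WT and at 7.81, 9.39, 7.99 and 6.36 CPM in TAZG197V. Map6d1, a relative of the microtubule-stabilising protein MAP6, was at 0.421, 0.284, 0.371 and 0.954 CPM in WT and at 3.67, 2.98, 4.31 and 2.45 CPM in TAZG197V. Of the 50-base windows of Bex1, 30.9% also occur in Bex2, Bex4 or Tceal7, and 18.8% of its exon bases overlap Tceal7. Tceal7, named after its values were seen, was at 0.227, 0.681, 0.186 and 0 CPM in WT and at 0.954, 0.854, 0.625 and 0.941 CPM in TAZG197V, with a log2 fold change of 2.40 and an adjusted p of 0.00341, and was not called because its mean count was under 50. The genotypes overlapped for Tceal7, and reads that it shares with Bex1 cannot be told apart. The exons of Map6d1 are nearly free of other genes.

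Pvt1, the long non-coding RNA next to Myc, was at 0.906, 0.795, 0.891 and 0.520 CPM in WT and at 7.56, 7.22, 6.55 and 5.46 CPM in TAZG197V. Gm32856 was at 0.259, 0.256, 0.148 and 0.217 CPM in WT and at 4.59, 3.47, 4.08 and 2.45 CPM in TAZG197V. The third transcript without a long reading frame, 2010204K13Rik, was at 0.0647, 0.142, 0.186 and 0.0434 CPM in WT and at 3.70, 4.05, 2.63 and 2.37 CPM in TAZG197V. All 3 were lowest in TAZG197V 4 among the mutant hearts. Fam227b, a gene of little known function, had 4 reads over all WT libraries and 719 over the TAZG197V libraries, and was at 5.87, 7.41, 5.49 and 4.63 CPM in the latter. The ratio of its summed levels was 173, with a counting interval of 67.3 to 637. A830018L16Rik was at 0, 0, 0.0371 and 0.434 CPM in WT and at 2.42, 2.12, 2.80 and 4.07 CPM in TAZG197V, and Glrp1 was at 0.324, 0.284, 0.668 and 0.347 CPM in WT and at 2.31, 2.15, 3.52 and 2.64 CPM in TAZG197V.

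Levels can be set beside each other between genes only per length. Per kilobase of exon, the mean level in TAZG197V hearts was 14.7 CPM for Phgdh, 10.3 CPM for Cdsn, 6.65 CPM for Bex1, 4.46 CPM for B4galnt2 and 3.37 CPM for Acox2, and the lowest was 0.231 CPM for Gabrg3. Trim66, the third by CPM, has 10125 exon bases and came to 1.27 CPM per kilobase, below the group's median of 1.40.

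The limits cut through a continuous range of levels. Just inside the WT limit were Phgdh and Cela1, both with a highest WT level of 0.998 CPM, and Slc30a2 with 0.994 CPM. Just outside were Eprn with 1.003 CPM, Adig with 1.10 CPM and Tfcp2l1 with 1.19 CPM. At the other limit, the lowest TAZG197V level was 2.03 CPM for Trp63 and 2.12 CPM for A830018L16Rik, while Fibcd1 with 1.995 CPM, Mei4 with 1.88 CPM and Gm31678 with 1.81 CPM fell short. With libraries scaled by TMM, a scaling that discounts a few dominant genes, 20 of the 24 genes met the limits, and Cela1, Phgdh and Trp63 were among those that did not. With library totals that leave out the mitochondrially encoded genes, which raises every CPM, 13 of the 24 met the limits, and the 11 that did not included Phgdh, Acox2, Trim66, Bex1, Pcdhga8, Pvt1, Slc30a2, Map6d1, Cela1 and Trp63. With the genotypes exchanged, 10 genes were below 1 CPM in all TAZG197V libraries and at least at 2 CPM in all WT libraries. These ran from Gm34302, with 12.0 ± 4.33 CPM (SD, n = 4) in WT and 0.459 ± 0.0918 CPM in TAZG197V, to Gm12167, with 2.39 ± 0.473 CPM in WT and 0.824 ± 0.138 CPM in TAZG197V, and also held Gm10635, Cngb3, Ano5, Cpn2, Gm26862, Gm28979, Gm24474 and Hsbp1l1.

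**Figure D2:**
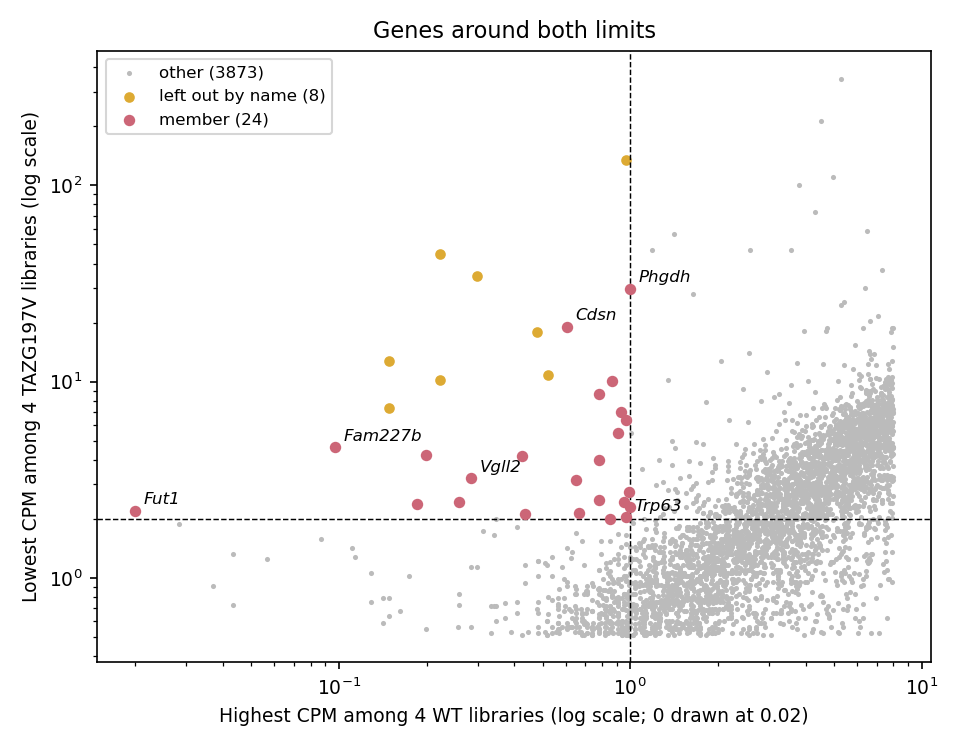
Lowest CPM among the 4 TAZG197V libraries against the highest CPM among the 4 WT libraries (both axes log, a highest WT level of 0 drawn at 0.02) for genes with at least 0.5 CPM in every TAZG197V library and under 8 CPM in every WT library. The dashed lines are the limits of 1 and 2 CPM; the 24 genes (red) and the 8 left out by name (yellow) fill the upper left corner, and other genes (grey) continue without a gap across both limits.

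A model across all genes placed the group in the whole data set. The quasi-likelihood test of edgeR, with genotype and 2 surrogate variables that stand for unlabelled variation, was run on 15084 genes that passed the filter on low counts, and all 24 genes passed that filter. Because they could pass through the TAZG197V libraries alone, this share is no support. A gene was called when the Benjamini-Hochberg adjusted p was under 0.05, the fold change past a small minimum set after the study's methods and the mean scaled count at least 50, and 17 of the 24 reached that count. By these criteria 33.4% of all genes tested were called, 18.5% higher and 15% lower in TAZG197V hearts. The fitted log2 fold changes of the 24 genes, which the selection fixes to be positive, ran from 2.12 for Slc30a2 to 7.05 for Fam227b among the genes with WT reads. In 16 other fits the fold change moved by more than 1.5 times for 10 of the 24 genes. Fam227b, with 4 WT reads, ran from 6.68 to 8.13, the latter without WT 1, and A830018L16Rik from 4.32 without WT 2 to 7.69 without both libraries numbered 4. Vgll2 ran from 4.68 without WT 4 to 6.04, and Serpinb1c from 4.41 without WT 4 to 6.03 without WT 3. Vat1l, Map6d1, Cela1, Gabrg3 and Phgdh were higher without both libraries numbered 4, at 4.95, 3.30, 3.53, 3.95 and 6.57. The fitted value of Fut1, 9.12 here and 8.32 to 9.15 in 16 other fits, depends on the prior count because WT had no read, and only its bound of at least 87.0-fold is measured. The median of the 24 was 4.01, also with Fut1 at its bound, and that of all genes tested was −0.01.

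The spread among mutant hearts was set by the limits in part, since a gene such as Fut1 that lies near 2 CPM could not fall much lower in any TAZG197V library and stay in the group. The coefficient of variation (CV) of CPM over the 4 TAZG197V libraries ran from 3.01% for Fut1 to 48.9% for Trp63, with a median of 22.3%. Counting error alone would give a median CV of 8.37% for the 24 genes. The median CV was 9.93% over the 7734 tested genes with a mean TAZG197V level in the range of the group. It was 10.3% over all genes tested. After Trp63 the widest spread was that of Kcnj4 with 42.6% and B4galnt2 with 34.2%. Trp63 was highest in TAZG197V 3, Kcnj4 in TAZG197V 4 and B4galnt2 in TAZG197V 2, while Trp63 and B4galnt2 were both lowest in TAZG197V 4.

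TAZG197V 4 was the lowest mutant library for 13 of the 24 genes, against 34.4% of all genes tested, and TAZG197V 2 was the highest for 10, against 28.4%. Among WT hearts, WT 4 was highest for 9 genes, against 28.9%, and WT 2 for 7, against 41.9%. The summed level of the group was likewise lowest in TAZG197V 4, at 148 CPM, and highest in TAZG197V 2, at 201 CPM. Without both libraries numbered 4, 37 genes met the limits, where each gene had fewer libraries to pass.

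**Figure D3:**
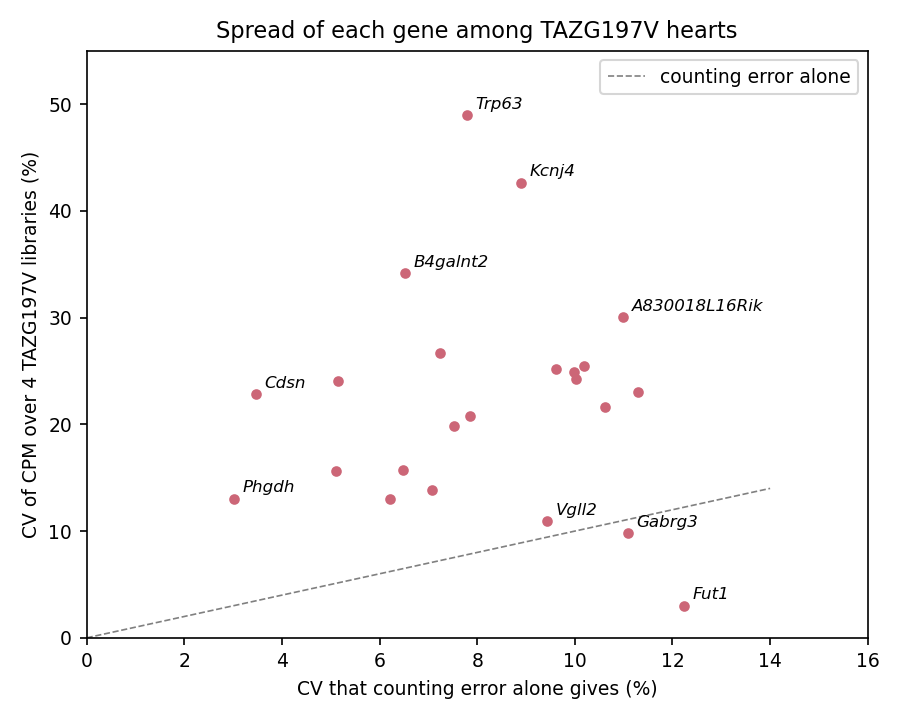
CV of CPM over the 4 TAZG197V libraries against the CV that counting error alone gives, both in percent, with 1 point for each of 23 genes and equality as a dashed line. Trp63, Kcnj4 and B4galnt2 spread most, at 48.9%, 42.6% and 34.2%, and Fut1 and Gabrg3 lie below the line.

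Genes that neighbour the 24 on the chromosome were counted to see whether a gene of the group stood alone at its locus. Within 100 kb there were 216 other genes, of which 100 could be tested, with 18 called higher and 8 called lower in the mutant. The share called was 26% against 33.4% of all genes, and 18% were called higher against 18.5%. The locus of Pcdhga8 held 25 of the 100 tested neighbours, of which 2 were called, both lower, and without it 24 of 75 were called (32%), with 18 called higher (24%), a count added after the values were seen. Without Fgf21, which met both limits itself, 25 of 99 were called. Of the 21 genes of the group with a tested neighbour, 9 had a neighbour called higher and 8 had none called in either direction, among them Phgdh, Cdsn, Vat1l and Map6d1. The large differences lay at a few loci.

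Fut1 lies 1799 bases from Fgf21, the secreted hormone of mitochondrial and nutrient stress, which met the same limits and was left out by name. Fgf21 was at 0.0324, 0, 0.223 and 0.0434 CPM in WT and at 11.3, 10.2, 19.0 and 13.0 CPM in TAZG197V, so its level peaked in TAZG197V 3, where Fut1 was no higher than in the other hearts. No other pair of genes meeting both limits lay within 1 Mb. Ppp1r15a, the phosphatase subunit that reverses phosphorylation of eIF2α, lies 91021 bases from Fut1 and rose from 21.4 ± 2.69 to 55.2 ± 6.88 CPM (SD, n = 4), with a log2 fold change of 1.30 ± 0.12 (SE) and an adjusted p of 0.000139. Fut2, the sister fucosyltransferase at the same locus, had 2.02 ± 0.381 CPM in WT and 0.655 ± 0.152 CPM in TAZG197V, with a log2 fold change of −1.75 ± 0.22 and an adjusted p of 0.000567. Its mean count was under 50 and it was not called.

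Myc, the growth-promoting transcription factor 47612 bases from Pvt1, was at 3.24, 6.27, 3.52 and 3.08 CPM in WT and at 26.9, 24.5, 19.0 and 18.8 CPM in TAZG197V. The genotypes did not overlap, and the log2 fold change of Myc was 2.57 ± 0.15 (SE) with an adjusted p of 1.48e-05. Next to Slc30a2, at 1888 bases, Extl1, a glycosyltransferase of the exostosin family, was at 36.0, 33.0, 37.1 and 26.5 CPM in WT and at 151, 142, 135 and 111 CPM in the mutant hearts. The fitted log2 fold change was 1.96 ± 0.08, of a size with the 2.12 of Slc30a2 itself, and its adjusted p was 2.67e-06.

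All 3 tested neighbours of Fam227b were called higher, against 18.5% of all genes tested. Fgf7, a growth factor for epithelial cells that lies within the span of Fam227b, rose from 1.09 ± 0.225 to 3.08 ± 1.20 CPM (log2 fold change 1.37 ± 0.22, adjusted p = 0.00199). Galk2, an N-acetylgalactosamine kinase whose exons overlap those of Fam227b, rose from 9.20 ± 1.00 to 16.7 ± 1.60 CPM (0.81 ± 0.09, adjusted p = 0.000299). Dtwd1, at 137 bases, rose from 3.99 ± 0.569 to 7.45 ± 1.41 CPM (0.84 ± 0.11, adjusted p = 0.000618). The counting is not stated to have used the strand, so reads of Fam227b and Galk2 over the 11.2% of shared exon bases cannot be told apart. Near Trp63, P3h2, a collagen prolyl hydroxylase, rose from 3.53 ± 0.658 to 9.93 ± 2.66 CPM (1.44 ± 0.24, adjusted p = 0.00206). Near Serpinb1c, its relative Serpinb6b rose from 51.5 ± 10.5 to 110 ± 13.2 CPM (1.12 ± 0.09, adjusted p = 5.63e-05) and near Cela1 the non-coding Gm49492 fell from 3.48 ± 0.506 to 1.87 ± 0.205 CPM (−0.91 ± 0.15, adjusted p = 0.00198). The 10 neighbours named here with a call were called in each of 16 other fits.

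Gm11382, named after its values were seen, is a pseudogene 40302 bases from Serpinb1c. It was at 0.0324, 0.142, 0 and 0 CPM in WT and at 1.25, 1.24, 0.789 and 0.828 CPM in TAZG197V, with an adjusted p of 0.000115, and was not called because its mean count was under 50.

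**Figure D4:**
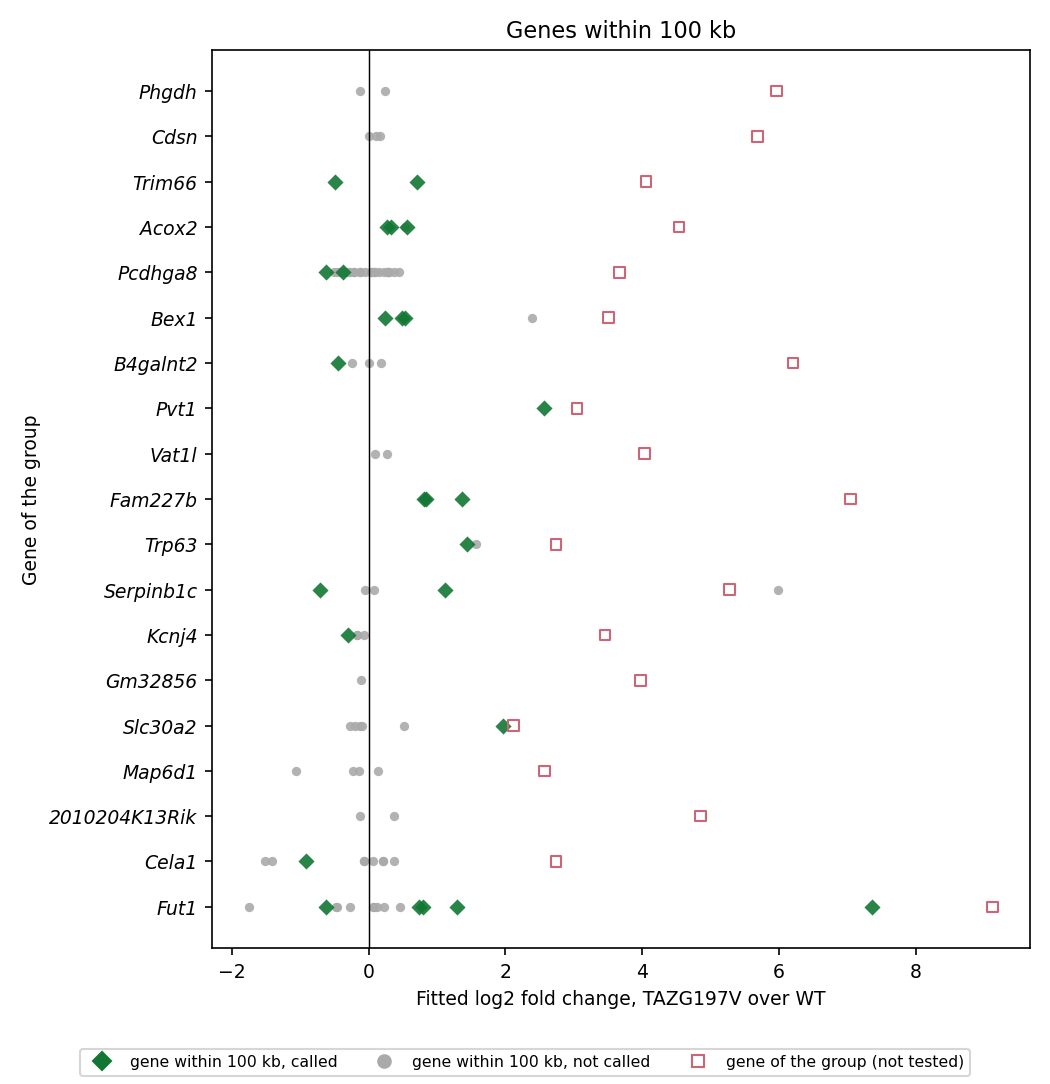
Fitted log2 fold change, TAZG197V over WT, of tested genes within 100 kb of genes of the group (diamonds, called; grey circles, not called), with the gene itself as an open square. Most neighbours lie near 0 far to the left of the square, while Myc beside Pvt1, Extl1 beside Slc30a2, Gm11382 beside Serpinb1c (5.99) and Fgf21 beside Fut1 (7.35) lie closer to it.

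Relatives with the same symbol stem gave another comparison that the selection did not use. There were 86 such relatives of 13 genes, 41 could be tested, and 5 were called higher and 7 lower, which made 29.3% called against 33.4% of all genes. The share among relatives was thus near that of all genes. Trim66 and Fam227b were left out of this count, since their stems cover 68 and 177 genes of little relation.

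Kcnj4 was higher in TAZG197V hearts by selection. Of 7 other inward rectifiers tested, 3 were called lower and 0 higher, against 15% and 18.5% of all genes tested. Kcnj3, a subunit of the acetylcholine-gated channel, fell from 107 ± 14.8 to 26.8 ± 3.92 CPM (log2 fold change −2.04 ± 0.06, adjusted p = 4.79e-07), with WT libraries between 90.1 and 121 CPM. Of the atrial cardiomyocyte markers, 6 could be tested and 4 were called lower, against 15% of all genes, with a median log2 fold change of −1.21 and the sum in WT 2 far above the other libraries. In 16 other fits, that without WT 2 included, Kcnj3 was called lower each time, with log2 fold changes between −2.09 and −1.99. The part of atrial tissue in the level of Kcnj3 was not tested. Kcnj2, which carries the resting potassium current of ventricular cells, was at 58.2, 53.6, 76.1 and 118 CPM in WT and at 36.4, 31.4, 30.3 and 31.1 CPM in TAZG197V (−1.35 ± 0.13, adjusted p = 0.000156), and Kcnj12 fell from 24.8 ± 2.93 to 11.6 ± 0.688 CPM (−1.20 ± 0.07, adjusted p = 1.44e-05). The other tested relatives, Kcnj5, Kcnj8, Kcnj11 and Kcnj15, were not called, with adjusted p between 0.0622 and 0.630.

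The cluster of Pcdhga8 holds many relatives. Of 20 other gamma protocadherins tested, 0 were called higher by edgeR (2 at an unadjusted p under 0.05, and 0 called by DESeq2) against 18.5% of all genes, and 1, Pcdhgc3, was called lower against 15%. Their log2 fold changes lay between −0.62 and 0.44.

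In the serpin family, Serpinb6b and Serpinb6a were called higher, the latter from 87.8 to 137 CPM (0.61 ± 0.06, adjusted p = 0.000235), and Serpinb1a, a close relative of Serpinb1c, was called lower (−0.71 ± 0.19, adjusted p = 0.0190, and in 13 of 16 other fits). Among zinc transporters Slc30a4 was called higher (0.53 ± 0.09, adjusted p = 0.00193), and Slc30a6 was also called (0.23 ± 0.08, adjusted p = 0.0467) but in only 2 of 16 other fits. Acox3, a relative of Acox2, was not called (adjusted p = 0.875). Trp53 and Vat1 were not called, with log2 fold changes of 0.13 and 0.10. Fut8 was called lower (−0.39 ± 0.07, adjusted p = 0.00337). The calls of Bex3 (0.49, higher), B4galnt1 (−0.97, lower) and Vgll3 (−0.85, lower) were held by 5, 5 and 7 of 16 other fits.

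**Figure D5:**
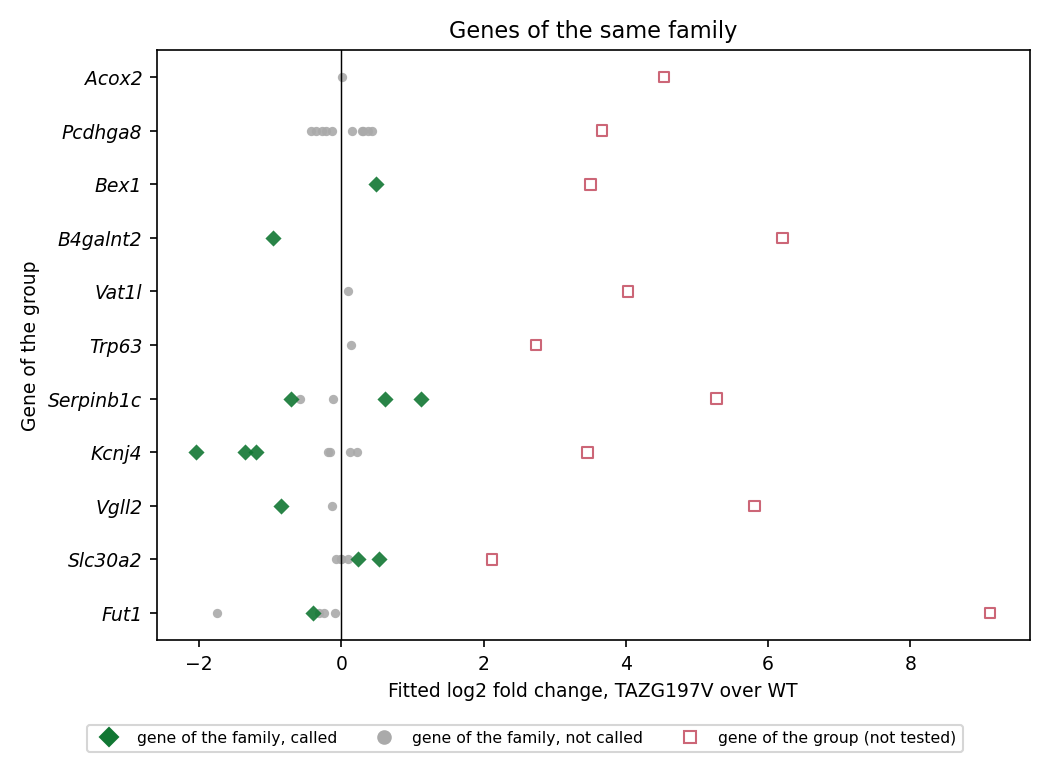
Fitted log2 fold change, TAZG197V over WT, of tested genes with the same symbol stem as a gene of the group (diamonds, called; grey circles, not called), with the gene itself as an open square. No relative comes near its square; Kcnj3 at −2.04 and Serpinb6b at 1.12 are the outermost calls.

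Phgdh was the only gene of the group on a list of 30 ATF4 target genes. The list was written with results of these data known and its counts are a description. Of the 29 targets that did not meet both limits, 27 were called higher against 18.5% of all genes and 1, the lipoprotein receptor Vldlr, was called lower against 15%, with a median log2 fold change of 1.98. Mthfd2, of mitochondrial folate metabolism, went from 3.92 ± 0.921 to 369 ± 19.3 CPM, the asparagine synthetase gene Asns from 3.26 ± 1.05 to 243 ± 20.5 CPM, and Gdf15, a secreted stress signal, from 0.979 ± 0.418 to 80.7 ± 19.0 CPM. Their log2 fold changes of 6.45, 6.10 and 6.37 exceeded the 5.96 of Phgdh, and WT levels above the limit of 1 CPM in at least 1 library kept them out of the group. The later enzymes of serine synthesis did not start from near silence: Psat1 went from 3.52 ± 0.984 to 85.6 ± 11.1 CPM and Psph from 5.34 ± 0.556 to 16.7 ± 3.64 CPM, both called higher.

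The promoters of the group were searched for 4 short motifs on both strands, in windows from 250 bases before to 50 bases after each RefSeq start on GRCm38.p6. A window was found for 19 of the 24 genes, with several starts for some and none for others, such as A830018L16Rik, Pcdhga8, Pvt1 and Trp63. TGATGNAA, the C/EBP-ATF element bound by ATF4, was in 0 of 19 genes and in 4.51% of all 27025 genes with a promoter. TGACNNNGC, the core of the antioxidant response element, was in Acox2 and Phgdh, thus 10.5% of 19 genes, against 14.0% of all genes. CCACG, an end of the ER stress element, was in 31.6% against 35.5%, and TATAAA, the TATA box, in Cela1, Phgdh, Serpinb1c and Trim66, thus 21.1% against 15.7%. The exact binomial 95% interval of the last share was 6.05% to 45.6%, and those of the other 3 also held the share of all genes. A match is a string of letters and no shown site, and the absence of a match holds for these windows only.

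The 250 bases before a start are shown for Phgdh, the most abundant gene, for Acox2, the other holder of TGACNNNGC, for Cela1, with TATAAA close to its start, and for Fut1, the gene without a read in WT, in which none of the 4 motifs was found. All run 5′ to 3′ toward the start, with matches on either strand in capitals. They lie at chr3:98339970-98340219 (minus strand), chr14:8259020-8259269 (minus strand), chr15:100687921-100688170 (minus strand) and chr7:45617356-45617605 (plus strand).
Phgdh: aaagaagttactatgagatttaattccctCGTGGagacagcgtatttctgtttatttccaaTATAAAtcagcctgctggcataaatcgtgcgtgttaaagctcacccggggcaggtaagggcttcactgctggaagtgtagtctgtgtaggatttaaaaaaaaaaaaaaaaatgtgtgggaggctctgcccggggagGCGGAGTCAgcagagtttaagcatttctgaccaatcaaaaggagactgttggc
Acox2: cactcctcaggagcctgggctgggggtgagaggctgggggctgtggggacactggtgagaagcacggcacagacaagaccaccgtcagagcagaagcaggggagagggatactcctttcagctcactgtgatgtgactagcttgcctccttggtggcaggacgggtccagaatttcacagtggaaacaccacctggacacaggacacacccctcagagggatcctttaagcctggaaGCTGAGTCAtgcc
Cela1: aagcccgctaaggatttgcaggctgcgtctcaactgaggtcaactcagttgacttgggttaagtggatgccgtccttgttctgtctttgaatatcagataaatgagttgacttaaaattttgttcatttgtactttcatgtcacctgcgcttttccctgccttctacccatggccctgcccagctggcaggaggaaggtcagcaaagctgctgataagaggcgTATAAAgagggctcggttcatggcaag
Fut1: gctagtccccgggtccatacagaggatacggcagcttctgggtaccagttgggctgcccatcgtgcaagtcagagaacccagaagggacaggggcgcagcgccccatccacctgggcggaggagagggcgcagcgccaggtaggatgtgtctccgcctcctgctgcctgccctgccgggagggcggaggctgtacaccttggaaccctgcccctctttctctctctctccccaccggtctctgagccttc
In Phgdh the capitals mark, in order, CCACG on the reverse strand, TATAAA, and TGACNNNGC on the reverse strand. In Acox2 they mark TGACNNNGC on the reverse strand, and in Cela1 TATAAA.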

How the data were processed

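Counts of 8 heart libraries, 4 WT and 4 TAZG197V, were analysed. According to the labels, the authors' single-end reads were demultiplexed with bcl2fastq 2.20.0, and the authors checked them with FastQC 0.11.9, aligned them to mm10 with STAR 2.7.3a and counted reads over the exons of each gene with featureCounts from Subread 2.0.0. The deposited values are raw counts per Ensembl gene. The annotation release, strand setting and treatment of reads with several alignments are not given in the sources used here. The 92 rows of ERCC spike-ins held 0 counts and were left out.

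Symbols, positions and exons came from GENCODE M21 on GRCm38 (55230 gene IDs with a symbol, 241 without), and promoters from RefSeq on GRCm38.p6. CPM was computed from library totals. Genes were filtered with filterByExpr, scaled by TMM and tested two-sided in edgeR 4.0.16 (R 4.3.3) for genotype, with 2 surrogate variables from svaseq (sva 3.50.0, seed 1) and Benjamini-Hochberg adjustment over 15084 genes. The SE of a log2 fold change is its size divided by the root of its F statistic. Alternatives were DESeq2 1.42.0, other scaling and filters, other covariates, leaving out libraries and other limits.

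The genes of the group and all lists were chosen with earlier results of these data known. The squamous and pancreatic lists were added after values were seen. Values in all libraries were to be given for the genes highest in TAZG197V, those with the widest and narrowest spread and those of certain role, and up to 10 neighbours, relatives and ATF4 targets with the largest changes among those called were named. Relatives share the symbol without its final digits and the letter after them, up to 30 genes a stem. Shared sequence was measured as 50-base windows of a gene's transcripts found in other genes' transcripts. Intervals and floors cover counting error only, since reads carried no molecular identifiers. Some genes, 1 of the group among them, are not reported here by name, and counts include them.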

Additional observations from a re-analysis of the deposited data

Results flagged for a closer look

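In each group of 4 libraries, the levels of the 24 genes and their sum were searched for a library far from the other 3, by dividing the gap between it and the closest other library by the range of all 4 and comparing that share with Dixon's 95% critical value. Chance alone passes about 1 in 20 groups of values, and 3 of 49 passed. Because the genes were chosen for WT levels below 1 CPM and TAZG197V levels of at least 2 CPM, the gap shares are a description and no test. All 3 were in WT hearts and rest on few reads. Vgll2 was apart in WT 2 (gap share 0.888), with 10 reads and 0.284 CPM against 0.0371 to 0.0647 CPM in the other WT libraries. A830018L16Rik was apart in WT 4 (gap share 0.914), with 10 reads and 0.434 CPM against 0 to 0.0371 CPM, and WT 4 was also the WT library with the most neuron and glia transcripts, whose part in this value was not tested. Glrp1 was apart in WT 3 (gap share 0.836), with 18 reads and 0.668 CPM against 0.284 to 0.347 CPM.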

How the results depend on the processing

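The number of genes in the group depended on its limits. It was 8 with a WT limit of 0.5 CPM, 10 with a TAZG197V limit of 4 CPM and 37 without both libraries numbered 4, where a gene had fewer libraries to pass. Leaving out 1 library gave 24 to 31 genes, with 31 without WT 4 and 30 without TAZG197V 4. TMM scaling gave 20 genes, and totals without mitochondrially encoded genes gave 21, of which 13 were shared. The number of genes called was 5043, fell to 1831 with a fold change of 1.5 required, and was 3666 to 4814 when 1 library was left out. Among neighbours, 15 of 66 tested were called within 50 kb (22.7%) and 43 of 149 within 200 kb (28.9%), against 33.4% of all genes tested. TGACNNNGC was found in 0 genes when only the plus strand was searched. Of all values recomputed, 1363 kept their call or level, 48 lost a call, 11 gained one and 24 moved, and no called value changed direction. Fold changes that moved by more than 1.5 times could count as kept here. Serpinb1c, Vat1l, Gabrg3, Cela1, Map6d1 and Phgdh moved that far in some fit and counted as kept in all 16. Of the group, A830018L16Rik, Fam227b, Fut1 and Vgll2 counted as moved in at least 1 fit. The median fitted log2 fold change, relatives and ATF4 targets stayed within 1.5 times their values.

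Deviations of same-numbered WT and TAZG197V libraries from their genotype means correlated at 0.277, 0.0436, 0.28 and 0.416 for numbers 1 to 4. Because number 2 was not over 0.1, and WT 3, TAZG197V 1 and TAZG197V 2 correlated best with another number, the numbers were not taken as a pairing. Same-numbered libraries shared a sequencing lane, lane 7 for numbers 1 and 2 and lane 8 for numbers 3 and 4. With the number as a replicate block, 4272 genes were called, and with the lane as a term, 4235. Both fits left out the surrogate variables, and without these and without any block 4192 genes were called. The genes of the group had a median of 46.5 reads over all WT libraries together, which limits the precision of their WT levels.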
